A study of Homo sapiens with 10 samples.

Results

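The genes described are 8 that encode RNA-binding proteins linked to m6A, the methylated adenosine of RNA: IGF2BP1, IGF2BP2, IGF2BP3, HNRNPA2B1, HNRNPC, RBMX, FMR1 and LIN28B. They were taken from a list of symbols, and all 8 were found among the 58037 gene identifiers of the expression tables. The data came from A549 cells, a human lung adenocarcinoma line, and from A549/DDP cells, a cisplatin-resistant A549 line that the study received as a gift and whose selection is not described. Both lines were grown in RPMI medium with fetal bovine serum and had passed at most 10 times, and neither the genotype nor a drug added during these cultures is named in the labels. Each line had 2 input RNA libraries and 2 m6A-seq libraries, in which RNA fragments are pulled down with an antibody against m6A and enriched stretches are called as peaks. The inputs held 35286514 and 34570074 expected counts in A549, and 29225501 and 33971561 in A549/DDP. A further pair of A549 inputs, whose labels name no experiment, held 855034 and 982036 counts, of which 75.2% and 73.9% lay on mitochondrial genes, against 0.0363% to 0.0547% in the other inputs. That pair is used only as an alternative. The labels do not say that replicates came from separate cultures, so the p-values measure the spread between these libraries, which may be technical.

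The lines were checked against markers of their cell type. The summed TPM (RNA level scaled for transcript length and depth) of 5 epithelial markers was 3684 and 7921 in the A549 inputs and 14741 and 14736 in the A549/DDP inputs, led by KRT8 in each library. CDKN2A, a gene deleted in A549, was at 0.29 and 0 TPM in A549 and at 1.03 and 0.08 TPM in A549/DDP. Summed TPM of 3 fibroblast markers lay between 2.83 and 19.2, with COL1A1 the most abundant, and that of 3 leukocyte markers between 0.03 and 4.86, with CD3E at 0 counts in each of these inputs. The epithelial markers CDH1 and KRT18 were higher in A549/DDP, with log2 fold changes of 2.26 ± 0.43 (SE, adjusted p = 0.0220) and 1.18 ± 0.19 (SE, adjusted p = 0.0146). KRT8 was called higher as well, EPCAM was flat at -0.07, and KRT19 ran the other way at -3.30 without passing the threshold, with 0 counts in A549/DDP replicate 2. In every alternative that tested it KRT19 was lower, from -13.25 to -2.26, and in some of them it passed the threshold. Of 13 alternatives, KRT18 was called in 12, not with both A549 pairs (1.64). KRT8 was called in 10, not with both A549 pairs (1.72) or in the 2 fits on log2 TPM (1.60 and 1.60). Whether this shift in epithelial markers has a part in the differences below was not tested. In bulk libraries, fewer cells that express a gene cannot be told apart from less RNA per cell.

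The IGF2BP proteins hold on to target mRNAs in the cytoplasm through KH domains, and have been described as readers that stabilise m6A-bearing mRNAs. HNRNPA2B1, HNRNPC and RBMX are nuclear proteins that package and process nascent RNA; methylation can loosen local RNA structure and so expose their binding sites. FMR1 encodes FMRP, which restrains translation and also binds m6A-bearing mRNAs, and LIN28B blocks the maturation of let-7 microRNAs.

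The levels of the 8 genes differed widely within each line. By mean TPM the order in A549 was HNRNPA2B1, HNRNPC, RBMX, IGF2BP1, IGF2BP3, IGF2BP2, FMR1 and LIN28B, from 2160 ± 297 (SD, n = 2) to 3.54 ± 0.88 (SD, n = 2). In that order IGF2BP2 and FMR1 overlapped between libraries, and the other neighbours did not. In A549/DDP the mean TPM ran from 2175 ± 165 (SD, n = 2) for HNRNPA2B1 to 1.20 ± 0.87 (SD, n = 2) for LIN28B. The order there differed at 1 place: FMR1, whose libraries overlapped with those of IGF2BP3, stood above IGF2BP2. IGF2BP2 thus moved from a mean of 72.1 TPM, above 86.6% of genes with a value over 0, to 14.4 TPM, above 57.5% of them.

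**Figure D1:**
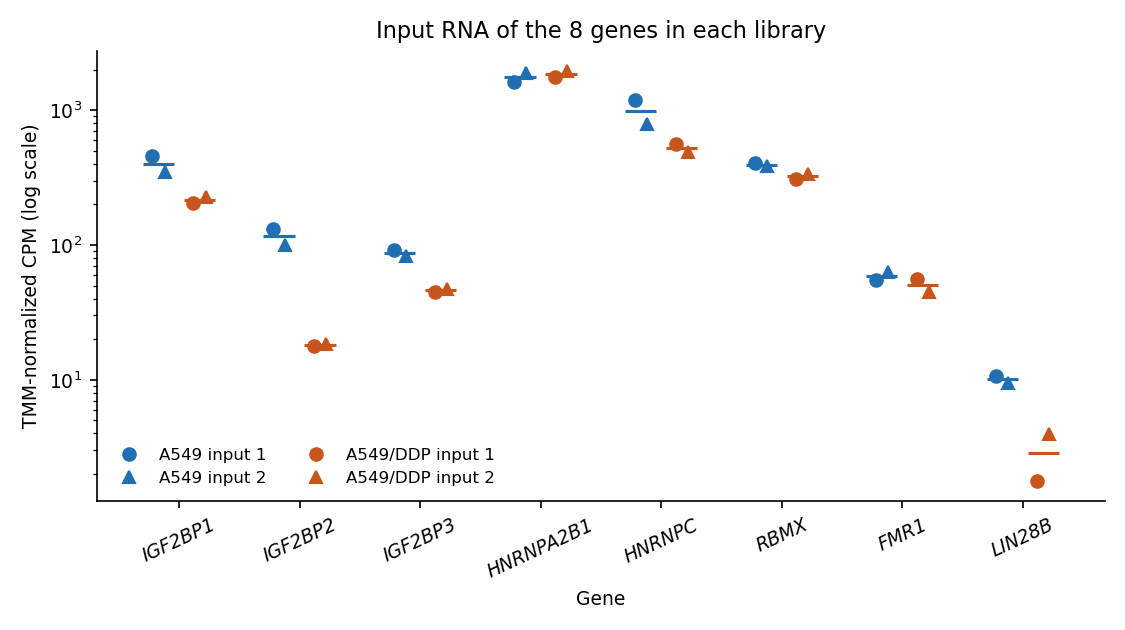
Input RNA of the 8 genes in each library as TMM-normalized CPM, counts scaled to library depth (log axis), with circles for replicate 1, triangles for replicate 2 and a line at the mean of each pair. IGF2BP2 falls from 132 and 100 in A549 to 17.9 and 18.5 in A549/DDP, while HNRNPA2B1 lies between 1618 and 1945 in the 4 libraries.

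Input RNA was compared between the lines to learn how each gene's level differed in the resistant cells. The values are CPM after TMM normalization, the fold changes are A549/DDP over A549, and called means an adjusted p under 0.05 in edgeR's quasi-likelihood test over 16406 genes. Of the 8 members, 4 were called and all 4 were lower in A549/DDP, where 8.0% of all tested genes were called lower and 14.9% were called in either direction. None of the 8 was called higher, against 6.85% of all tested genes. For 6 members both A549 inputs lay above both A549/DDP inputs, a pattern that 32.7% of tested genes showed. The median log2 fold change was -0.90 over the members and -0.0016 over all tested genes, and all 8 passed the filter on low counts.

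Among the IGF2BP family, IGF2BP2 had the widest difference. IGF2BP2 was at 132 and 100 CPM in the A549 inputs and at 17.9 and 18.5 CPM in the A549/DDP inputs. Both A549 libraries were far above both A549/DDP libraries, which lay close together. The RNA of IGF2BP2 was 6.36-fold lower in A549/DDP, with a log2 fold change of -2.67 ± 0.23 (SE, adjusted p = 0.0032). It was called in 12 of 13 alternative analyses, the exception being the second pair of A549 inputs, in which it had 4 counts per library and a log2 fold change of -0.87.

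IGF2BP1, which is expressed in embryonic tissue and again in many tumours, was at 454 and 346 CPM in A549 and at 205 and 225 CPM in A549/DDP. The lines did not overlap, and the A549 libraries were farther apart than the A549/DDP libraries. Its RNA was 1.86-fold lower in A549/DDP, with a log2 fold change of -0.89 ± 0.19 (SE, adjusted p = 0.0301). IGF2BP3, also an oncofetal member of the family, was at 92.2 and 83.0 CPM in A549 and at 44.7 and 47.3 CPM in A549/DDP. Each pair of replicates was close, and the lines did not overlap. Its RNA was 1.90-fold lower, with a log2 fold change of -0.93 ± 0.19 (SE, adjusted p = 0.0290). For both genes the call was lost without either A549/DDP library, with log2 fold changes of -0.85 and -0.97 for IGF2BP1 and -0.91 and -0.98 for IGF2BP3. It was also lost when log2 TPM was tested in place of counts, where IGF2BP1 kept a log2 fold change of -0.90 and that of IGF2BP3 was -0.55 with a pseudocount of 1. With the second A549 pair, in which IGF2BP1 had 24 and 19 counts and IGF2BP3 had 1.95 and 3, the log2 fold changes were 0.26 and 1.14, neither of them called. The median of all genes in that fit was 0.80, so a sign above 0 there cannot be told apart from a shift of all genes, with IGF2BP1 below that median and IGF2BP3 above it, the other way from its main value. With both A549 pairs together they were -0.55 and -0.53, again not called.

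On the TPM scale the 3 family members summed to 457 and 359 in A549 and to 187 and 229 in A549/DDP. IGF2BP2 made up 19.6% and 15.2% of that sum in A549, and 6.49% and 7.22% in A549/DDP. Its share was thus lower in both A549/DDP libraries than in either library of the first A549 pair. In the second A549 pair, at 4 counts each, the share of IGF2BP2 was 8.33% and 6.31%, which overlaps with A549/DDP. By counts in place of TPM it was 13.4% and 15.4% in that pair, against 6.70% and 6.38% in A549/DDP, without overlap. IGF2BP1 made up 59.8% and 52.4% in A549 and 63.3% and 53.7% in A549/DDP, so it was the most abundant of the 3 in each library and its share overlapped between the lines. IGF2BP3 made up 20.5% and 32.4% in A549 and 30.3% and 39.1% in A549/DDP, and these ranges overlapped too. In the second A549 pair IGF2BP1 made up 88.2% and 88.4% and IGF2BP3 3.49% and 5.30%, all outside these ranges. The overlap of the first A549 pair with A549/DDP depends on the unit, since by counts, which do not correct for length, neither share overlapped. By counts IGF2BP1 made up 66.9% and 65.4% in A549 and 76.6% and 77.4% in A549/DDP. By counts IGF2BP3 made up 13.6% and 15.7% in A549 and 16.7% and 16.3% in A549/DDP. In the second A549 pair these count shares were 80.1% and 73.1% for IGF2BP1, which overlaps with A549/DDP, and 6.51% and 11.5% for IGF2BP3. The TPM of IGF2BP3 was 93.9 and 117 in A549 and 56.7 and 89.5 in A549/DDP, farther apart between replicates than its CPM. The deposited mean transcript length of IGF2BP3, by which TPM is scaled, was 1529 and 1300 bases in A549 and 1334 and 950 bases in A549/DDP. For each of the 8 genes this mean length overlapped between the lines.

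**Figure D2:**
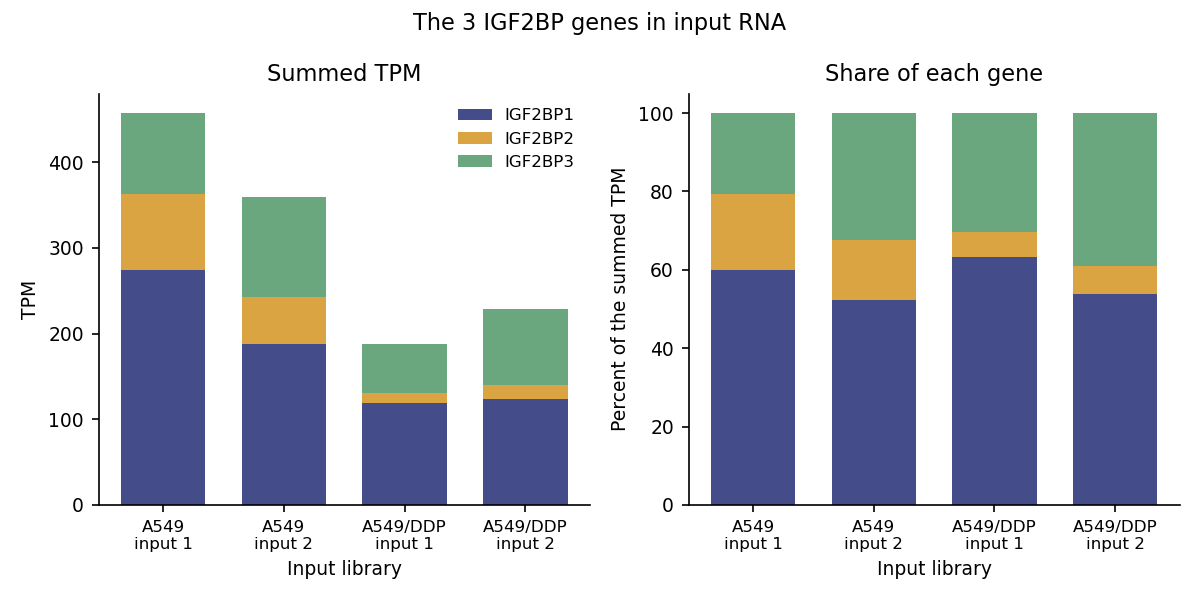
TPM of IGF2BP1, IGF2BP2 and IGF2BP3 stacked for each of 4 input libraries (left) and as percent of their sum (right). The sum is 457 and 359 in A549 against 187 and 229 in A549/DDP, and the band of IGF2BP2 is 19.6% and 15.2% wide in A549 and 6.49% and 7.22% in A549/DDP. The second A549 pair, at 8.33% and 6.31%, is not drawn.

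The stretch before the gene start was examined for the members that were called lower and have an entry in the promoter table of RefSeq (GRCh38.p14), which held 7 of the 8 members and not IGF2BP1. Shown are the 250 bases before the start, on the gene's own strand, of IGF2BP2 (chr3:185825043-185825292, minus strand), IGF2BP3 (chr7:23470492-23470741, minus strand) and HNRNPC (chr14:21269443-21269692, minus strand). Capitals mark the E-box CACGTG and the GC box GGGCGG, searched on both strands.
IGF2BP2: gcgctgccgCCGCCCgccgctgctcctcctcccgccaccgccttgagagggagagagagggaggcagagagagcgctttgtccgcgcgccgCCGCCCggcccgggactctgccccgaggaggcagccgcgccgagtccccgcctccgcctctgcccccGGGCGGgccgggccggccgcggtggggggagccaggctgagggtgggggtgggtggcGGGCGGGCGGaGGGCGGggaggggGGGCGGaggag
IGF2BP3: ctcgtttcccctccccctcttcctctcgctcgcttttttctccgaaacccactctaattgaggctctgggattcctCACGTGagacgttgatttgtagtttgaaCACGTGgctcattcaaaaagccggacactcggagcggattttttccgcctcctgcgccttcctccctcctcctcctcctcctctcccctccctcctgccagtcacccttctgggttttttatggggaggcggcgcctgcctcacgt
HNRNPC: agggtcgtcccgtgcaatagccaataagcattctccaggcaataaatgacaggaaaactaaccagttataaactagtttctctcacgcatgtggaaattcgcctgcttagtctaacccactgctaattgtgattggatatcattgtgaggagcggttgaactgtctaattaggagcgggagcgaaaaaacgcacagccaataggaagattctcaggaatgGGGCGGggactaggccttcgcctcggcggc
The IGF2BP2 stretch holds 7 GC boxes, of which 2 overlap each other, and no E-box. Its G and C content of 81.6% is above that of 98.0% of the 35116 promoter windows. A further window listed for IGF2BP2 (chr3:185821143-185821392, minus strand) has a G and C content of 32.8% and neither motif, but holds 1 CCAAT box and 1 TATAAA box. IGF2BP3 has 2 E-boxes, starting 174 and 146 bases before the gene start, and no GC box, while HNRNPC has 1 GC box and no E-box, besides 3 CCAAT boxes and 1 TATAAA box, of which the other 2 stretches have none. Of all windows, 6.34% hold an E-box, 42.6% a GC box, 32.0% a CCAAT box and 10.7% a TATAAA box, and none of these is present in all 3 stretches. Members that were not called hold them too: FMR1 has 1 E-box and 3 GC boxes, and LIN28B has 2 GC boxes in 1 window and 1 E-box in another. A match of letters is not a binding site, and binding was not measured here.

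Genes that work with the IGF2BP proteins or are known to be bound by them were taken as lists. Of the cofactors ELAVL1, MATR3 and PABPC1, 1 was called, where 14.9% of all tested genes were. PABPC1, the poly(A)-binding protein, was at 1928 and 1801 CPM in A549 and at 1160 and 1231 CPM in A549/DDP. Both A549/DDP libraries were lower, and the log2 fold change was -0.64 ± 0.14 (SE, adjusted p = 0.0327). PABPC1 was called in 9 of 13 alternatives and lost the call without either A549/DDP library, at -0.62 and -0.69. The median log2 fold change of 12 RNAs described as bound by IGF2BP proteins was -0.05. Of these 12, 3 were called, all lower (8.0% of all tested genes were). These were HMGA2 at -1.59 ± 0.39 (SE, adjusted p = 0.0460), the Hedgehog factor GLI1 at -1.55 ± 0.35 (SE, adjusted p = 0.0357) and the chromatin protein HMGA1 at -0.64 ± 0.16 (SE, adjusted p = 0.0490). These calls were lost in many of the 13 alternatives, and with both A549 pairs no gene of the related lists was called. HMGA2 was called in 6, and not without A549 replicate 2 (-1.46) or A549/DDP replicate 2 (-1.39). On log2 TPM with a pseudocount of 1 HMGA2 was at -0.92 (limma, adjusted p = 0.511), and its TPM of 12.0 and 17.9 in A549 overlapped with 19.9 and 2.29 in A549/DDP. GLI1 was called in 8, not without A549/DDP replicate 2 (-1.26), and with the second A549 pair it was at 1.66. HMGA1 was called in 7, and not without either A549/DDP library (-0.60 and -0.70). The other 9, ACTB and CCND1 among them, did not pass the threshold. Whether their levels follow those of the IGF2BP genes was not tested.

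Of the 3 nuclear members, 1 was called, where 14.9% of all tested genes were. HNRNPA2B1, which has been linked to m6A-dependent processing of primary microRNAs, was at 1618 and 1893 CPM in A549 and at 1776 and 1945 CPM in A549/DDP. The lines overlapped, and the log2 fold change of 0.08 ± 0.15 (SE, adjusted p = 0.779) was smaller than its error. With the second A549 pair, whose fit has the shifted median given above, HNRNPA2B1 was instead called lower in A549/DDP, at -0.55 with an adjusted p of 0.0143 (edgeR), and with both pairs it was at -0.41 and not called. HNRNPC, which binds uridine tracts of nascent transcripts, was at 1180 and 783 CPM in A549 and at 558 and 487 CPM in A549/DDP. The A549 replicates were far apart, yet both lay above the A549/DDP libraries. The RNA of HNRNPC was 1.88-fold lower in A549/DDP, with a log2 fold change of -0.91 ± 0.23 (SE, adjusted p = 0.0475), just inside the threshold. Without A549/DDP replicate 1 the adjusted p of HNRNPC was 0.0929, at a log2 fold change of -1.03, and without replicate 2 it was 0.156, at -0.82. With the second A549 pair HNRNPC was at -1.80 and called, with an adjusted p of 1.30e-06 (edgeR), and with both pairs it was at -1.57 and not called, with an adjusted p of 0.131. RBMX, a splicing factor encoded on the X chromosome, was at 404 and 383 CPM in A549 and at 311 and 336 CPM in A549/DDP. The lines did not overlap, but the log2 fold change of -0.28 ± 0.15 (SE, adjusted p = 0.262) did not pass the threshold. With the second A549 pair, where RBMX had 94 and 171 counts, it was called at -1.76 with an adjusted p of 1.68e-05, and with both pairs it was at -1.35 and not called.

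HNRNPC and RBMX have related copies elsewhere in the genome, to which reads may be assigned. The copies were matched by the start of their symbol, and how alike their sequences are was not checked. The 13 copies of HNRNPC held 0.324% and 0.390% of the counts of HNRNPC in A549, and 0.275% and 0.0752% in A549/DDP. The 8 copies of RBMX held between 2.05% and 2.94% of the counts of RBMX in these inputs, nearly all at RBMXL1. Antisense genes of IGF2BP2, LIN28B and FMR1 were at 0 or 1 count in each of these inputs.

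Other hnRNP and hnRNP-like genes moved in both directions. Of 24 such genes, 4 were called higher and 3 lower in A549/DDP, with a list median of -0.05, and 17 did not pass; of all tested genes 6.85% were called higher and 8.0% lower. The called genes with the widest differences were HNRNPA0 at 1.41 ± 0.19 (SE, adjusted p = 0.0084), PCBP1 at 1.23 ± 0.23 (SE, adjusted p = 0.0218) and HNRNPH3 at -1.05 ± 0.26 (SE, adjusted p = 0.0478), all as log2 fold changes. HNRNPH3, HNRNPM and HNRNPU were called lower, as HNRNPC was, and all 3 lost the call without either A549/DDP library, at -1.03 and -1.10, -0.84 and -0.86, and -0.66 and -0.76. HNRNPU was at 0.19 with the second A549 pair. PCBP1 lost the call without A549/DDP replicate 2, at 1.16, and HNRNPA0 lost it on log2 TPM with either pseudocount, at 1.36 and 1.41, and with both A549 pairs, at 1.18. HNRNPH3 moved to -2.09 with the second A549 pair and to -1.82 with both pairs. Of the close paralogs of members, 7 of 8 were tested and 1 was called, FXR2, a paralog of FMR1, at a log2 fold change of -1.10 ± 0.21 (SE, adjusted p = 0.0215), again beside 14.9% of all tested genes. Without A549/DDP replicate 1 FXR2 was at -0.94 and not called, and with the second A549 pair it was at 1.19 and not called.

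FMR1 itself was at 54.9 and 63.3 CPM in A549 and at 55.6 and 44.9 CPM in A549/DDP. The lines overlapped, and the log2 fold change of -0.23 ± 0.22 (SE, adjusted p = 0.555) was about the size of its error. It was -0.42 without A549/DDP replicate 1 and -0.09 without A549/DDP replicate 2. With the second A549 pair, at 4 and 6 counts, it was 0.27 and not called, below the median of all genes in that fit. On the TPM scale FMR1 was at 76.8 and 59.7 in A549 and at 84.0 and 47.0 in A549/DDP. In each line the library with the higher TPM had the lower mean transcript length, at 1142 against 1871 bases in A549 and 1139 against 1611 bases in A549/DDP.

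LIN28B was the scarcest member. It had 351 and 336 counts in A549 and 53 and 138 counts in A549/DDP. Those counts have 95% Poisson intervals of 315 to 390, 301 to 374, 39.7 to 69.3 and 116 to 163, which cover counting error only. The A549/DDP libraries were both lower than the A549 libraries and differed from each other beyond counting error. In CPM, LIN28B was at 10.7 and 9.48 in A549 and at 1.79 and 3.96 in A549/DDP, with a log2 fold change of -1.81 ± 0.70 (SE, adjusted p = 0.136), not past the threshold. Without A549/DDP replicate 2 it was called, at -2.50 with an adjusted p of 0.0474, and without replicate 1 it was at -1.37 with an adjusted p of 0.190. On log2 TPM with a pseudocount of 1 it was at -1.09 and not called. Its paralog LIN28A had 24 counts in A549 replicate 1 and 0 in the other 3 inputs. Of 12 genes of the LIN28 and let-7 axis, 9 were tested and 1 was called, HMGA2, a let-7 target whose TPM overlapped between the lines, beside 14.9% of all tested genes. The let-7 microRNAs were not measured in these libraries.

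**Figure D3:**
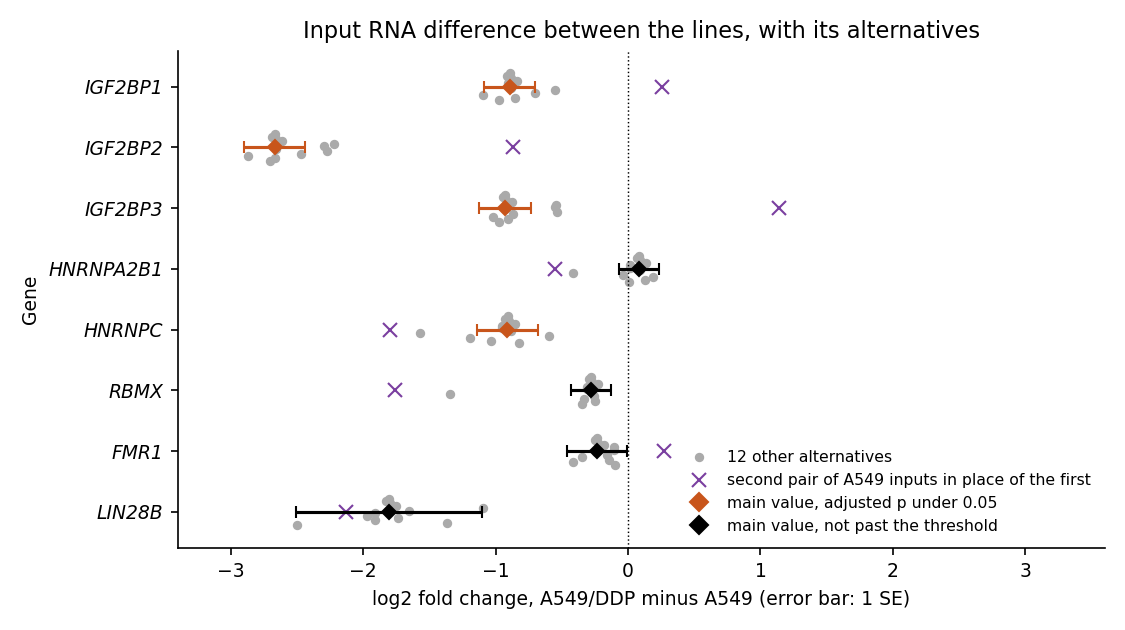
Log2 fold change of input RNA in A549/DDP over A549 for each gene, with bars of 1 SE around the main value (orange where the adjusted p was under 0.05), grey points for 12 alternative analyses and a cross for the analysis with the second pair of A549 inputs. IGF2BP2 at -2.67 lies to the left of 0 in all of them, while the crosses come from a fit in which the median of all genes was 0.80, so a cross to the right of 0 cannot be told apart from that shift.

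The peak lists were then compared, to see where these mRNAs themselves carried called m6A peaks in each line. A peak was called by the authors in each library separately, and the lists hold 26320 and 14576 peaks for A549 and 27244 and 10661 for A549/DDP, without read depth. Of the 8 members, 1 and 2 had a peak in the A549 lists, where 43.7% and 30.6% of the genes tested for expression had one. In the A549/DDP lists 4 and 2 members had a peak, where 40.7% and 22.2% of tested genes had one. These shares differ with RNA level. The mean CPM of IGF2BP1, HNRNPC and RBMX lay between 100 and 1000 in both lines. Of genes at that level, 57.9% and 51.9% had a peak in the A549 lists, and 75.1% and 50.9% in the A549/DDP lists. IGF2BP3, FMR1 and LIN28B had no peak in any of the 4 lists, as for 43.0% of tested genes. The 8 genes had 27 merged regions in all, made of peaks whose exon blocks shared at least 1 base. Of these, 3 were called in both A549 lists, 5 in both A549/DDP lists and 0 in all 4. Regions were merged for the members only, so no share of regions over all genes stands beside these counts. Counted by gene, 0 of the 8 members had a peak in all 4 lists, where 13.9% of tested genes had one in each.

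**Figure D4:**
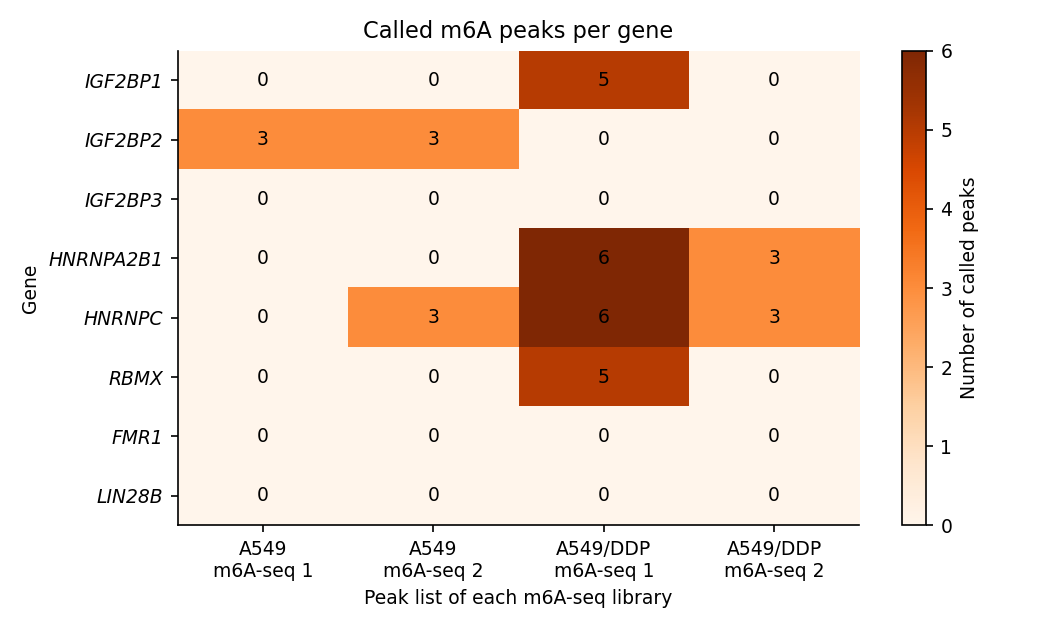
Number of called m6A peaks at each gene (rows) in the list of each m6A-seq library (columns), with darker orange for more peaks. IGF2BP2 has 3 peaks in each A549 list and 0 in the A549/DDP lists, and HNRNPA2B1 has 6 and 3 peaks in the A549/DDP lists and 0 in the A549 lists.

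IGF2BP2 had 3 peaks in A549 replicate 1 and 3 in replicate 2, and none in either A549/DDP list. The peaks of both A549 replicates fell on the same 3 regions of the minus strand, chr3:185643789-185644088, chr3:185644437-185644736 and chr3:185645184-185645483 in hg38. They end 659, 1307 and 2054 bases before the annotated end of the gene, each in a single exon block, and the first 2 have identical borders in both lists. The deposited p-values were 0.00026 to 0.0054 in replicate 1 and 0.0014 to 0.01 in replicate 2. A pattern of peaks in both A549 lists and neither A549/DDP list was seen for 4.62% of tested genes. IGF2BP2 RNA was also lower in A549/DDP, and 56.2% and 28.0% of genes with 10 to 100 CPM in that line had a peak in its lists. A loss of methylation and fewer reads on a scarcer mRNA cannot be told apart from a list of called peaks.

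HNRNPA2B1, with RNA at a like level in both lines, showed the opposite pattern. Its peaks numbered 0 in both A549 lists, 6 in A549/DDP replicate 1 and 3 in replicate 2. Peaks in both A549/DDP lists and neither A549 list were seen for 1.97% of tested genes. Of the 92 genes at 1000 CPM or more in A549, 33.7% and 41.3% had a peak in its lists, and of the 92 such genes in A549/DDP, not all of them the same, 42.4% and 51.1% had a peak in its lists. The 2 regions that both A549/DDP lists shared were chr7:26191625-26192024, which ends 1698 bases before the gene end, and chr7:26200630-26200780, which lies across the annotated gene start. At the first of these the peaks were chr7:26191625-26191924 in replicate 1 and chr7:26191874-26192024 in replicate 2. That region was not shared when at least 50% of the shorter peak had to overlap, a rule that was met at the start region. Whether the lines differ in methylation there was not tested.

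The peak across the start of HNRNPA2B1 had the same 151 bases in both A549/DDP lists, with p-values of 0.026 and 0.0018, and reached 34 bases past the annotated start. Shown are the 250 bases before that start (chr7:26200747-26200996, minus strand, RefSeq GRCh38.p14), with the 34 bases inside the peak in capitals.
HNRNPA2B1: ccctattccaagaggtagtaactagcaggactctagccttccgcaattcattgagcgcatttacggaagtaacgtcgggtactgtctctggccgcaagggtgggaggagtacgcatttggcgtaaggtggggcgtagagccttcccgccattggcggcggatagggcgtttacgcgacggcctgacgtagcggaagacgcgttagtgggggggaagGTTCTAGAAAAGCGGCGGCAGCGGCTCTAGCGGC
In the 84 bases of the peak for which the promoter table gives sequence, the core m6A motif GGAC occurs 0 times. The remaining bases of the peak were not read. CBX3 starts on the opposite strand beside HNRNPA2B1, with 0 peaks in both A549 lists and 9 and 3 in the A549/DDP lists. CBX3, a heterochromatin protein, was at 196 and 196 CPM in A549 and at 123 and 125 CPM in A549/DDP, with a log2 fold change of -0.66 ± 0.16 (SE, adjusted p = 0.0418), a call that was lost without either A549/DDP library, at -0.67 and -0.68. With the second A549 pair CBX3 was at -3.13 (edgeR, adjusted p = 4.89e-08), and with both pairs it was at -2.52 and not called. The neighbours thus had peaks in the same lists, and whether their RNA differences between the lines are unlike was not tested.

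HNRNPC had peaks in 3 lists. It had 0 and 3 peaks in the A549 lists and 6 and 3 in the A549/DDP lists. The A549/DDP lists shared 3 regions, chr14:21210130-21210379, chr14:21210478-21210777 and chr14:21210926-21211865, which end 983, 1331 and 1779 bases before the gene end. The middle region joins peaks that share 1 base, and it was not shared under the rule of 50% overlap. The last of the 3 had identical borders and 697 exon bases in both A549/DDP lists, and A549 replicate 2 had a peak of 498 bases within it. All 6 peaks in A549/DDP replicate 1 had a p-value of 3.7e-07, below any other p-value of a member. HNRNPC was thus called lower in A549/DDP RNA, while each A549/DDP list held at least as many of its peaks as either A549 list. Peaks in A549 replicate 2 and both A549/DDP lists, as at HNRNPC, were seen for 0.841% of tested genes.

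IGF2BP1 and RBMX each had 5 peaks in A549/DDP replicate 1 and 0 in the other 3 lists. The peaks of IGF2BP1 covered 1150 exon bases with p-values of 0.00027 to 0.0052, and those of RBMX covered 1650 exon bases with p-values of 5.8e-05 to 0.00093. Both genes were at over 200 CPM in all 4 inputs. With a single replicate showing them, these peaks do not separate the lines, and the pattern was seen for 6.64% of tested genes. Without A549/DDP m6A-seq replicate 2, whose list is the shortest, 22 regions would be counted as called in A549/DDP in place of 5.

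**Figure D5:**
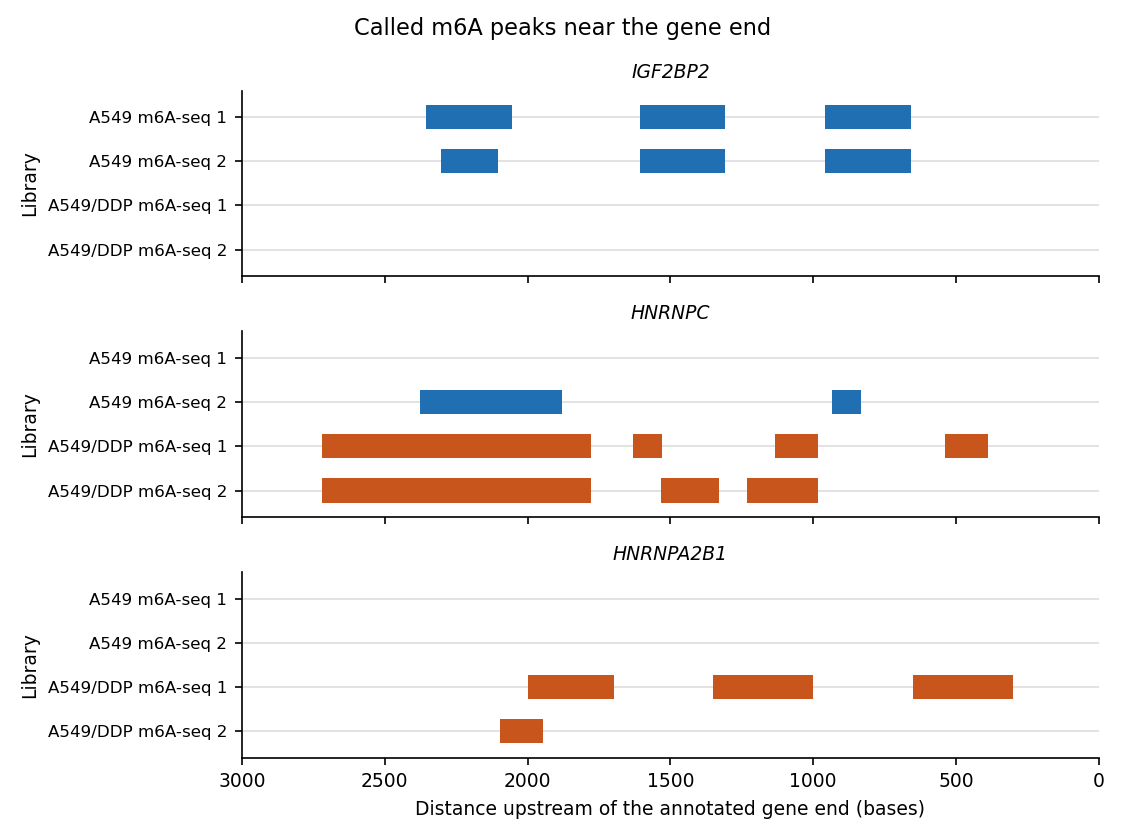
Called m6A peaks of IGF2BP2, HNRNPC and HNRNPA2B1 near the annotated gene end, by distance in bases, with 1 row per m6A-seq library, blue for A549 and orange for A549/DDP. Bars span each peak from start to end, introns included, so the bars of HNRNPC that end 1779 bases before the gene end hold 697 exon bases. The bars of IGF2BP2 line up in both A549 lists.

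Among the related lists, 10 and 12 of the 24 other hnRNP genes had a peak in the A549 lists and 18 and 14 in the A549/DDP lists. Of the 3 IGF2BP cofactors, 0 had a peak in the A549 lists and 2 and 1 in the A549/DDP lists. Of the 12 bound RNAs, 3 and 4 had a peak in the A549 lists and 5 had one in each A549/DDP list. Of the 7 tested paralogs, 3 had one in each A549 list and 6 and 4 in the A549/DDP lists. Of the 9 tested genes of the LIN28 and let-7 axis, 5 and 3 had one in the A549 lists and 6 and 2 in the A549/DDP lists. The shares over all tested genes were 43.7% and 30.6% in the A549 lists and 40.7% and 22.2% in the A549/DDP lists. Whether the members differ from these lists in peaks was not tested.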

How the data were processed

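The members were matched by symbol to Ensembl identifiers in the expression tables and peak lists. Of 58037 identifiers, 56948 were matched to a symbol, and a symbol with several identifiers (MATR3) kept the lowest. The members and the related lists were chosen with earlier results of these data known. All 8 members are named with values; of each related list at most the 4 called genes with the largest change are given with values. CBX3 was included as the neighbour of HNRNPA2B1. A549 m6A-seq replicates were numbered by their labels, which exchange the numbers in the file names. The YTHDF1 RIP-seq was not analysed here.

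The submitters' processing notes name STAR, RSEM, bedtools and hg38, without roles or versions, and the peak caller is not given in the sources used here. The authors deposited expected counts, which are estimates that need not be whole and are not normalized. TPM and FPKM, as deposited by the authors, correct for the length of transcripts and for depth, and the deposited mean transcript length is weighted by isoform abundance. The p-value of each peak was deposited by the authors; whether it is adjusted is not stated. The libraries were strand-specific, but whether the counting used strand is not stated.

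The test was edgeR 4.0.16 in R 4.3.3 (glmQLFit, glmQLFTest), run on rounded expected counts after filterByExpr and TMM, without a block and with Benjamini-Hochberg adjustment over 16406 genes. The SE is the absolute log2 fold change over the square root of F, an approximation. The common biological coefficient of variation was 0.656. Chi-square per degree of freedom between replicates was 89.6 (A549) and 54.9 (A549/DDP), well above counting error alone. On counts simulated with coefficients of variation of 0.1 and 0.2, below that of the data, the fit called 191 and 187 of 200 changed genes and 10 and 7 unchanged ones. Since the simulated counts varied less than the data, these figures do not give the power or the false calls of the fit here. Alternatives were DESeq2 1.42.0, limma 3.58.1 on log2 TPM with pseudocounts of 1 and 0.1, other filters and scaling, the replicate block, the second A549 pair and leaving out each library. Merging of peaks needed 1 shared exon base on the same strand, with 50% overlap, whole spans and p at or below 1e-05 as alternatives. Coordinates count from 1. Promoter windows came from RefSeq GRCh38.p14. Python 3.11.15, pandas 2.3.3, numpy 2.4.6, scipy 1.17.1 and matplotlib 3.10.9 were used.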

Additional observations from a re-analysis of the deposited data

How the results depend on the processing

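IGF2BP2 was called lower in A549/DDP in 12 of 13 alternatives and HNRNPC in 10; the causes of the changes below were not tested. The number of called genes, 2437, was 4234 with DESeq2, 4010 with no filter beyond 1 count, 1492 and 1177 with limma on log2 TPM (pseudocounts 1 and 0.1), 3758 with the second A549 pair, 677 with both pairs, and 2052 to 3809 when a library was left out. Members called, 4, became 2 in both limma analyses, 3 with the second pair (HNRNPA2B1, HNRNPC and RBMX) and 1 with both pairs. Beside them, 1492 and 1177 of 15398 tested genes were called with limma, 3758 of 13815 with the second pair and 677 of 16517 with both pairs. Of 54 listed related genes, 51 were tested in the main fit and 12 were called. The 12 became 21 with DESeq2 or at least 10 counts in every library, and 5 with the pseudocount of 0.1. They became 23 with the second pair and 0 with both pairs (edgeR).

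With limma the log2 fold change was -0.90 and -0.91 for IGF2BP1 and -0.55 and -0.55 for IGF2BP3, and neither gene was called. With the second pair, which moved the median of all genes to 0.80 and in which the IGF2BP genes, FMR1 and LIN28B had at most 24 counts, it was 0.26 for IGF2BP1, -0.87 for IGF2BP2, 1.14 for IGF2BP3, -0.55 for HNRNPA2B1, -1.80 for HNRNPC, -1.76 for RBMX and 0.27 for FMR1. With both pairs it was -0.55 for IGF2BP1, -0.53 for IGF2BP3, -0.41 for HNRNPA2B1 and -1.57 for HNRNPC, none called. A fit with both pairs and a term for the pair rests on the first pair again, so it is not counted among the 13. Leaving out a library gave -1.09 to -0.70 for IGF2BP1, -1.02 to -0.87 for IGF2BP3, -0.0400 to 0.19 for HNRNPA2B1, -1.19 to -0.60 for HNRNPC and -2.50 to -1.37 for LIN28B; a lone library was assumed to vary like the others.

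With the replicate block 3536 genes were called, and the same 4 members. Deviations of same-numbered inputs from their line means had a correlation of 0.021 across genes. With 2 libraries per line, that value cannot tell whether same-numbered libraries were prepared together.

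With counts in place of TPM, which do not correct for length, IGF2BP1 made up 66.2% and 77.0% of the family in A549 and A549/DDP and IGF2BP3 14.6% and 16.5%. The overlap that TPM gave between the first A549 pair and A549/DDP was then absent. At p at or below 1e-05 no merged region was shared, 0 in A549 and 0 in A549/DDP; with 50% overlap the A549/DDP lists shared 3. Without a library the regions numbered 3 to 6 in A549, 5 to 22 in A549/DDP and 0 to 1 in both lines. The lists give no depth for the peaks.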
